A study of Caenorhabditis elegans with 6 samples.

Results

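The genes described here are 10 collagen genes of the Caenorhabditis elegans cuticle: the furrow collagens dpy-2, dpy-3, dpy-7 and dpy-10, the annulus collagen dpy-13, the roller and squat collagens rol-6 and sqt-1, the body length collagen lon-3, and the blister collagens bli-1 and bli-2. They were chosen by name, as WormBase symbols, with earlier results of these data known. All 10 were matched, out of 46756 genes in the count table, and all 10 were among the 18428 genes that had at least 10 counts summed over the libraries and were tested. Of these, 8 had a mean of at least 20 counts per library, and bli-1 and bli-2 had fewer.

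RNA was sequenced from whole hermaphrodites at adulthood day 2, grown from hatching either as 1 worm per plate (solitary, 3 libraries) or as 10 worms per plate (3 libraries). The comparison asks whether the number of neighbours on the plate goes with a difference in gene expression. Every library came from strain ACH93, which has a wild-type N2 background and carries 2 integrated transgenes driven by the body wall muscle promoter of myo-3: wacIs1, a fluorescent proteasome subunit (RPN-5::wrmScarlet) that marks exophers, large vesicles shed by muscle, and wacIs14, a fluorescent mitochondrial membrane protein (TOMM-20::mGFP). Both transgenes also carry unc-119(+), both conditions share them, and no strain without them was compared.

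The worm cuticle is an extracellular coat made largely of collagens, which the underlying epidermis secretes. It is built anew at each molt, and cuticle collagen genes are transcribed in waves timed to the molting cycle, so an adult has passed its last round of cuticle building while the embryos inside it have yet to build their first. Collagens whose loss removes the circumferential furrows make worms short and fat (dumpy, dpy), others twist the body (roller, rol, and squat, sqt), lengthen it (long, lon) or detach the cuticle layers (blister, bli).

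The libraries held 55176436 to 62794403 gene counts each and detected 20105 to 20701 genes. Markers of epidermis, body wall muscle, intestine, germ line and neurons (10 genes) had counts in every library, and their highest and lowest libraries differed by 1.04-fold (snb-1) to 1.69-fold (col-19), so the whole-worm label was met. Fewer cells of a type and less RNA per cell cannot be told apart in such samples. Within each condition, every pair of replicates differed beyond the noise of counting (chi-square per degree of freedom 6.28 to 25.1), so none was treated as a copy of another. Solitary replicate 3 stood apart for genes of the molting cycle, and solitary replicate 2 and 10-worm replicate 3 stood apart for a further group of collagens, with the values given in turn.

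Levels below are counts per 1000000 counts of the scaled library (CPM), in solitary replicates 1, 2 and 3 and then 10-worm replicates 1, 2 and 3. Single reads counted for little on this scale: the 1 read of sqt-1 in 10-worm replicate 1 gave 0.0161 CPM.

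The furrow collagen dpy-7, a structural component of the furrows, measured 2.55, 4.43 and 0.206 CPM in solitary worms and 2.89, 2.60 and 3.04 CPM in the 10-worm population. It lies on chromosome X (7536467 to 7537792, minus strand, 2 exons). In the same order, dpy-2 measured 2.39, 3.00 and 0.240 CPM and then 2.82, 2.39 and 3.11 CPM. It lies on chromosome II (6714292 to 6715971, plus strand, 5 exons). The levels of dpy-3 (chromosome X, 2144605 to 2145647, minus strand, 2 exons) were 1.69, 2.64 and 0.0514 CPM and then 2.08, 1.70 and 2.32 CPM. For all of these furrow collagens, solitary replicate 3 was the lowest library, with 12 reads of dpy-7, 14 of dpy-2 and 3 of dpy-3, while the other 5 libraries held 92 to 270 reads of each.

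The highest library exceeded the lowest by 21.6-fold for dpy-7 (exact 95% interval 12.1 to 42.2), by 12.9-fold for dpy-2 (7.52 to 24.1) and by 51.4-fold for dpy-3 (17.3 to 252). These intervals, and those given below for the other members, cover counting error only. They do not allow for the choice of the highest and lowest library after the levels were seen. Among 13626 genes with a mean of at least 20 counts, the median ratio of highest to lowest library was 1.27 with 0.5 counts added, and 1% of the genes exceeded 6.98. Spreads at least as wide as those of dpy-7, dpy-2 and dpy-3 were found in 0.455%, 0.602% and 0.279% of those genes.

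The furrow collagen dpy-10, whose dominant mutations also cause rolling, had another pattern. It measured 18.1, 13.6 and 11.3 CPM in solitary worms and 16.3, 15.5 and 15.1 CPM in the 10-worm population, and its highest library was 1.61-fold above its lowest (1.45 to 1.78). Solitary replicate 3 was again the lowest, and 22.2% of genes spread as widely. On chromosome II, dpy-10 (6710149 to 6712227, minus strand, 5 exons) lies 2064 nt from dpy-2 and is transcribed away from it. The annotation places a further gene, T14B4.19, on the same strand over 780 nt of the 1593 nt of dpy-10 exons (49.0%), so reads of dpy-10 are uncertain wherever the counting could assign them to either gene. T14B4.19 was not analysed here. Per exon length, dpy-2 amounted to 0.158, 0.266 and 0.0256 of dpy-10 in solitary replicates 1 to 3 and to 0.208, 0.185 and 0.248 in 10-worm replicates 1 to 3. The ratio was lowest where dpy-2 itself was lowest.

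**Figure D1:**
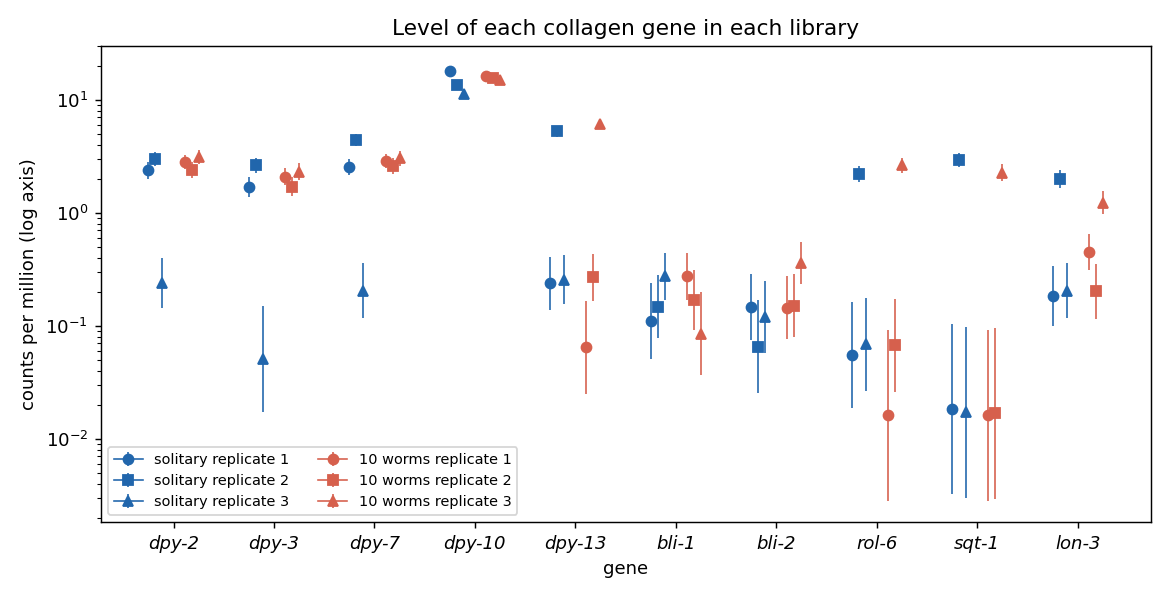
Level of each of the 10 collagen genes in each library, in CPM on a log axis, with bars for the 95% Wilson interval of counting error; each point is 1 library, by condition. Solitary replicate 3 is the low point for dpy-2, dpy-3 and dpy-7, solitary replicate 2 and 10-worm replicate 3 are the high points for dpy-13, rol-6, sqt-1 and lon-3, and dpy-10 stays between 11.3 and 18.1.

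The annulus collagen dpy-13, which lies in the ridges between the furrows, was near the floor in most libraries. It measured 0.239, 5.25 and 0.257 CPM in solitary worms and 0.0645, 0.269 and 6.12 CPM in the 10-worm population. These levels came from 13, 320 and 15 reads and from 4, 16 and 359 reads. The gene lies on chromosome IV (4235614 to 4236710, plus strand, 3 exons). Its highest library was 94.97-fold above its lowest (36.8 to 350), and 0.184% of genes spread as widely.

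The roller collagens followed the same libraries. The gene rol-6 (chromosome II, 8733050 to 8734239, plus strand, 3 exons), known for the dominant roller allele used as a transgene marker, had 3, 135 and 4 reads in solitary worms and 1, 4 and 154 reads in the 10-worm population. These are 0.0551, 2.22 and 0.0685 CPM and then 0.0161, 0.0672 and 2.63 CPM. Its partner in mutant phenotypes sqt-1 (chromosome II, 11336693 to 11337837, minus strand, 3 exons), in which different alleles give short, long or rolling worms, had 1, 179 and 1 reads and then 1, 1 and 133 reads. In CPM these were 0.0184, 2.94 and 0.0171, followed by 0.0161, 0.0168 and 2.27. Solitary replicate 2 and 10-worm replicate 3 each held over 100 reads of dpy-13, rol-6 and sqt-1, and none of the other 4 libraries held more than 16. The highest-to-lowest ratio was 163 for rol-6 (28.8 to 6477) and 182 for sqt-1 (32.3 to 7239), wide intervals because the lowest libraries held 1 read, and 0.154% and 0.139% of genes spread as widely.

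The body length collagen lon-3 (chromosome V, 12197437 to 12198645, minus strand, 2 exons), whose loss lengthens the worm, measured 0.184, 1.99 and 0.206 CPM in solitary worms and 0.451, 0.202 and 1.23 CPM in the 10-worm population, from 10, 121 and 12 and then 28, 12 and 72 reads. The same pair of libraries was highest, and the third highest was 10-worm replicate 1. Its highest library was 10.8-fold above its lowest (5.68 to 23.1), as wide as or wider than all but 0.763% of genes.

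The blister collagens, which form the struts that join the layers of the adult cuticle, were at the lower limit of detection in adulthood. For bli-1 (chromosome II, 10708960 to 10712156, plus strand, 5 exons) the libraries held 6, 9 and 16 reads in solitary worms and 17, 10 and 5 reads in the 10-worm population, or 0.0853 to 0.274 CPM. For bli-2 (chromosome II, 5651394 to 5652434, minus strand, 2 exons) they held 8, 4 and 7 and then 9, 9 and 21 reads, or 0.0657 to 0.358 CPM. Neither gene was high in solitary replicate 2, and only bli-2 was highest in 10-worm replicate 3. The highest-to-lowest ratios were 3.21 for bli-1 (1.13 to 11.2) and 5.46 for bli-2 (1.84 to 21.9). Since the intervals ignore the choice of the highest and lowest library, they cannot show that either gene varied beyond counting error. Whether the counting used strand is not given in the sources used here, and bli-2 lies within an intron of zyg-1, as lon-3 does within an intron of ogdh-2, on the opposite strand in both cases, while bli-1 shares 7 nt of exon with dph-2 on the opposite strand. The partner genes reached 7463, 10253 and 2775 reads, so a few reads of the host genes cannot be told apart from reads of these collagens.

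**Figure D2:**
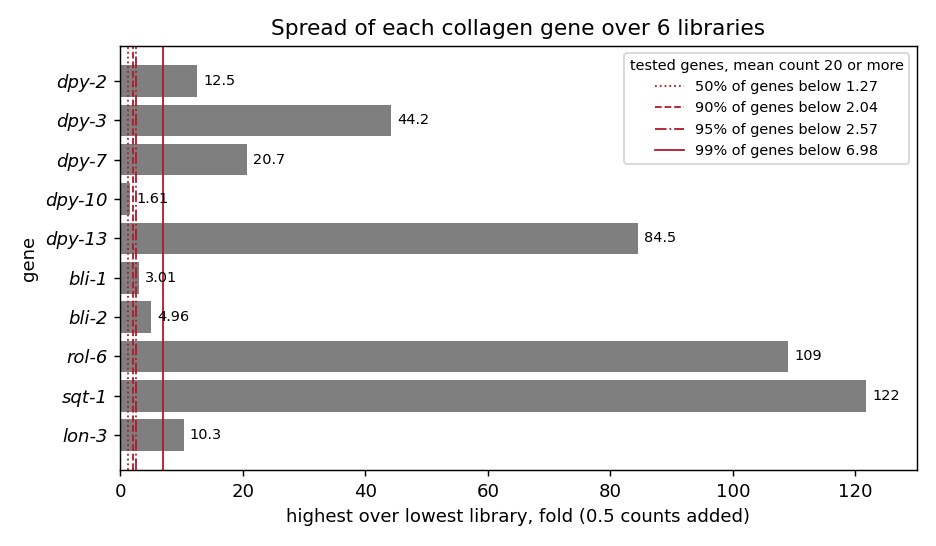
Ratio of the highest to the lowest library for each collagen gene, with 0.5 counts added, on a linear axis; the lines mark the ratios below which 50%, 90%, 95% and 99% of 13626 genes with a mean of at least 20 counts lie. Of the 10 collagen genes, 7 lie beyond the 99% line at 6.98, and dpy-10, bli-1 and bli-2 do not.

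Compared per exon length (CPM divided by exon length in kilobases, RPKM, averaged over the libraries), the order from highest to lowest was dpy-10, dpy-7, dpy-13, dpy-3, dpy-2, sqt-1, rol-6, lon-3, bli-2 and bli-1. The mean for dpy-10 was 9.41 RPKM (7.09 to 11.4 over the libraries), and its range did not overlap that of the next gene, dpy-7, at 2.28 RPKM (0.179 to 3.86). All other neighbours in the order overlapped over the libraries, and bli-1 averaged 0.0587 RPKM (0.0283 to 0.0911). From dpy-7 to lon-3 the order turned between libraries, since solitary replicate 2 and 10-worm replicate 3 carry the means of dpy-13, rol-6 and sqt-1. In all 6 libraries, however, lon-3 was above bli-2 and bli-2 was above bli-1. By the median over the libraries sqt-1 was the lowest of all at 0.0170 RPKM, below bli-1 at 0.0524 and rol-6 at 0.0623, and dpy-13 at 0.266 was below lon-3 at 0.292. For comparison on the same scale, the adult collagen col-19 averaged 189.7 RPKM. The summed level of the 10 genes was 17.8, 29.5 and 8.24 RPKM in solitary replicates 1 to 3 and 17.8, 16.3 and 29.1 RPKM in 10-worm replicates 1 to 3, and dpy-10 made up between 28.99% (solitary replicate 2) and 86.1% (solitary replicate 3) of it.

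The members therefore followed a few profiles over the 6 libraries. Pearson's r of log2 CPM was 0.99 to 1.00 between dpy-2, dpy-3 and dpy-7 (3 pairs), 0.81 to 1.00 between dpy-13, rol-6, sqt-1 and lon-3 (6 pairs), and 0.29 to 0.52 between the genes of one and the other set (12 pairs). The median over all 45 pairs was 0.30, and bli-1 had a negative r with each of the other 9 genes. These values describe 6 libraries, are dominated by the libraries named above and carry no test. After leaving out the 2 libraries farthest from the median of the first gene, r was 0.97 for dpy-2 with dpy-3, 0.86 for dpy-2 with dpy-7 and 1.00 for dpy-3 with dpy-7. For the other set, leaving out solitary replicate 2 and 10-worm replicate 3 took r with lon-3 to -0.98 for dpy-13 and -0.97 for rol-6. The pair dpy-13 and rol-6 kept 1.00, on 1 to 16 reads per library, where lon-3 held 10 to 28. Of these reads, rol-6 held only 1 to 4 per library. Among the libraries left, 10-worm replicate 1 was lowest for dpy-13 and rol-6 and highest for lon-3. These values of r therefore rest largely on that library and on few reads. With sqt-1, r was 0.66 for dpy-13, 0.60 for rol-6 and -0.78 for lon-3. In each library left, sqt-1 held 1 read, so its level there varied only with library scaling. These values of r therefore say nothing about its expression. In the libraries with over 100 reads of each, the per-length ratio of dpy-13 to rol-6 was 2.61 in solitary replicate 2 and 2.57 in 10-worm replicate 3, while that of rol-6 to sqt-1 was 0.723 and 1.11.

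The 10 genes outside the members whose log2 CPM most resembled the mean standardised profile of all members, among 10486 genes with a mean of at least 100 counts, were nhr-204 (r = 0.99 over 6 libraries), lgc-22 (0.98), ppm-2 (0.98), myrf-1 (0.97), F25F8.1 (0.97), F16B12.6 (0.97), F21C10.3 (0.97), cest-9.2 (0.96), K03A11.5 (0.96) and F11A10.5 (0.96). Their amplitude was small, as r ignores it: nhr-204 ranged from 119 to 166 reads. Profiles of single members, examined after their values were seen and over 13618 genes with a mean of at least 20 counts, were closest to Y65B4BL.1 for dpy-2, dpy-3 and dpy-7 (r = 1.00, 1.00 and 0.99), to ceh-6 for dpy-10 (0.99), and to the collagen gene col-17 for dpy-13 and rol-6 (1.00 and 1.00). The reads of col-17 numbered 3, 411 and 3 in the solitary and 0, 3 and 400 in the 10-worm libraries. The closest gene to sqt-1 was dpy-8 (1.00), itself a collagen gene, and the closest to lon-3 was T26C5.2 (0.99). Counting as collagens the col genes and those named from body shape mutants, 92 were among the genes compared. Of these, 10 had r above 0.95 with sqt-1 (26 of all genes compared). The count was 9 with rol-6 (24 of all) and 6 with dpy-13 (22 of all). It was 3 each with lon-3 (14 of all) and dpy-2 (107 of all). With dpy-3 it was 2 (97 of all), with dpy-7 1 (81 of all) and with dpy-10 0 (21 of all). Collagens such as col-17 and dpy-5 reached the mean of 20 counts only through solitary replicate 2 and 10-worm replicate 3. Those are the libraries where dpy-13, rol-6 and sqt-1 were high. The count minimum therefore bears on these counts, which carry no test.

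Most other collagen genes named from body shape mutants had their lowest or highest levels in the same libraries as the members. Of 11 listed, 10 were matched and tested. The 3 with the largest level per length, dpy-17, dpy-14 and sqt-3, were all lowest in solitary replicate 3. Their r with dpy-7 was 0.80, 0.89 and 0.95. For dpy-17 and dpy-14 the next lowest library was solitary replicate 2, where dpy-7 was highest. The reads of sqt-3, a collagen needed from embryogenesis on, were 1005, 1111 and 174 in the solitary and 1324, 1184 and 1791 in the 10-worm libraries. Those of dpy-14 were 1265, 801 and 197 and then 1485, 1399 and 1354, and those of dpy-17 were 1681, 1193 and 602 and then 2133, 2126 and 2105. The remaining genes dpy-4, dpy-5, dpy-8, dpy-9, rol-8 and sqt-2, picked out after their values were seen, were highest in solitary replicate 2 and 10-worm replicate 3. As the widest case, dpy-5 had 1, 239 and 2 reads in the solitary and 2, 2 and 339 reads in the 10-worm libraries. The blister gene bli-6 was near the floor at 7 to 14 reads. The highest-to-lowest ratio exceeded 5 for 7 of the 10, with a median of 9.24.

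Genes of the molting cycle were lowest in solitary replicate 3 for 8 of 11, where 2962 of the 13626 genes with a mean of at least 20 counts were lowest in that library. Their summed level was 90.4, 91.9 and 40.3 CPM in solitary and 101, 93.2 and 93.2 CPM in 10-worm replicates 1 to 3. Among the 3 highest per length, noah-2 and noah-1, components of the apical matrix that precedes the cuticle, had 216 and 484 reads in solitary replicate 3 and at least 887 and 1276 in each other library, while mlt-10 ranged over 1.18-fold. The protease inhibitor-like gene mlt-11, named after its values were seen, had 81 reads in solitary replicate 3 and 526 to 671 in the others. In solitary replicate 2 and 10-worm replicate 3, the summed level of the molting genes lay within the range of the other libraries except solitary replicate 3. Single molting genes went another way: mlt-9 had 110 and 117 reads in these libraries and 9 to 60 in the others, and qua-1 had 399 and 209 against 121 to 191. Both were picked out after their values were seen. The part that developmental stage, which molting genes mark, had in the spread of the collagens was not tested.

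**Figure D3:**
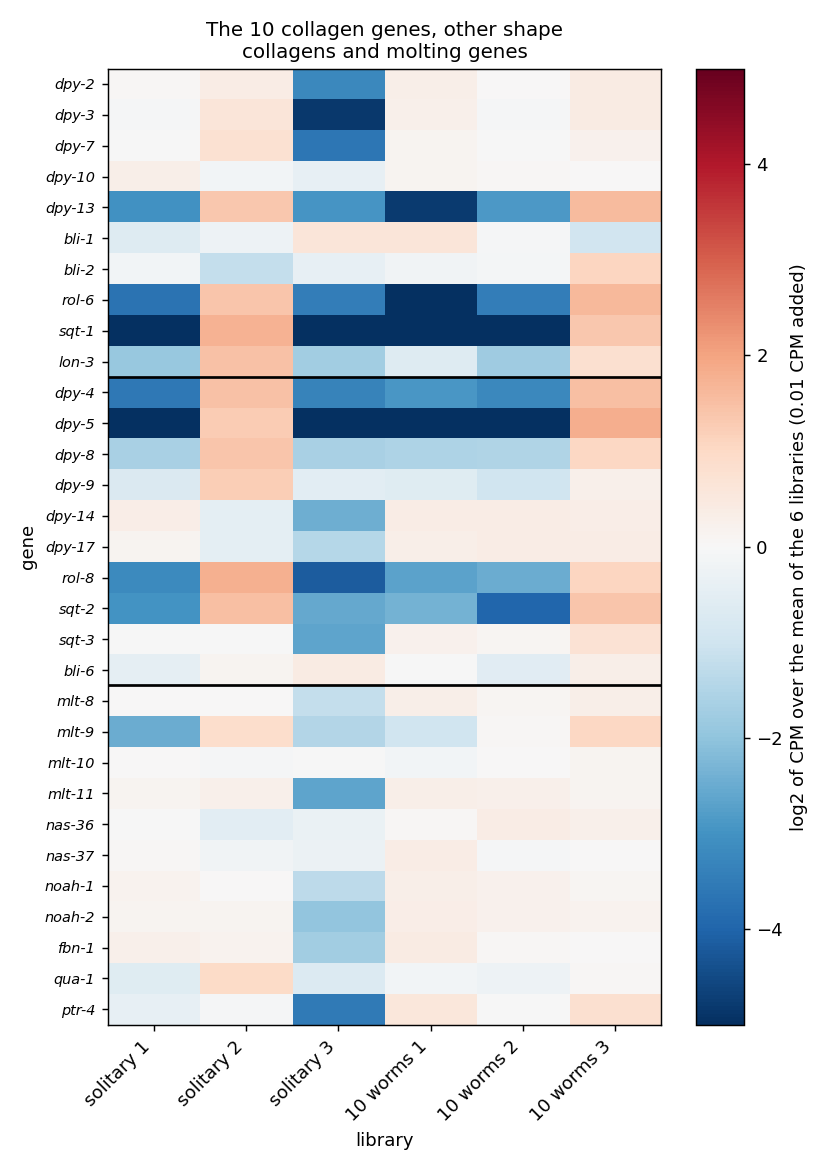
Heat map of log2 CPM relative to the mean of the gene over the 6 libraries (0.01 CPM added, colours limited to 5 in either direction), for the 10 collagen genes, 10 other collagen genes named from body shape mutants and 11 molting cycle genes; columns are libraries. Solitary replicate 3 is the lowest column for dpy-2, dpy-3, dpy-7 and 8 of the 11 molting genes, though only by little for qua-1 and nas-37. The columns of solitary replicate 2 and 10-worm replicate 3 are high for dpy-13, rol-6, sqt-1, lon-3 and dpy-5.

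The enzymes and partners that fold, process and crosslink collagen were far more even. Over 12 genes the median highest-to-lowest ratio was 1.24, and the most abundant per length, the protein disulfide isomerases pdi-2 and pdi-1 and the thioredoxin-like dpy-11, varied by 1.11-, 1.19- and 1.099-fold. Only bli-5, near the floor at 0.294 RPKM, exceeded 5-fold. Transcription factors of epidermis and molting (9 genes) had a median ratio of 1.30, with nhr-23, a nuclear receptor that drives the molting cycle, at 1.12, elt-1 at 1.30 and elt-3 at 1.19. The widest, picked out after their values were seen, were nhr-25 at 2.15, with 146 reads in solitary replicate 3 and 258 to 335 in the others, and blmp-1 at 1.85, with 289 against 354 to 570. In all, 5 of the 12 assembly genes and 5 of the 9 transcription factors were lowest in solitary replicate 3. The adult collagen col-19 varied 1.69-fold, and col-62 and col-7 were near the floor at 0.242 and 0.0562 RPKM.

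For the population density comparison, the levels of all 10 members overlapped between the conditions, where 18.3% of the 18428 tested genes did not overlap. None of the 10 had an adjusted p under 0.05 by edgeR's quasi-likelihood test (adjusted by Benjamini-Hochberg over all tested genes), against 0.239% of tested genes, and none met the study's additional fold threshold of 1 on the log2 scale, against 0.0109%. At an unadjusted p under 0.05 the count was also 0 of 10, where 11.9% of tested genes passed. DESeq2 likewise gave 0 of 10 at an unadjusted p under 0.05, and gave an adjusted p to dpy-10 alone (0.716). The median log2 difference of the members, 10 worms minus solitary, was 0.17, with 7 higher and 3 lower, and that of all tested genes was 0.0026.

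The precision of this comparison varied widely among the members. For dpy-10 the mean was 14.3 ± 3.48 CPM (SD, n = 3) in solitary worms and 15.6 ± 0.647 CPM (SD, n = 3) in the 10-worm population, a log2 difference of 0.12 with a 95% interval of -0.23 to 0.47 (adjusted p = 0.817, edgeR). The interval for dpy-2 ran from -1.69 to 2.81 around 0.56, that for dpy-7 from -2.37 to 2.86 around 0.24, and that for dpy-3 from -2.39 to 3.33 around 0.47. In solitary worms dpy-7 averaged 2.40 ± 2.12 CPM (SD, n = 3) and in the 10-worm population 2.84 ± 0.219 CPM (SD, n = 3). For dpy-13, rol-6 and sqt-1 the differences were 0.15, 0.19 and -0.39, and the intervals covered -5.40 to 5.70, -5.60 to 5.97 and -6.76 to 5.98, so these libraries could not show even a large difference. For lon-3 the difference was -0.35 (-3.70 to 3.00), for bli-1 -0.01 (-1.17 to 1.15) and for bli-2 0.97 (-0.21 to 2.14, adjusted p = 0.520, edgeR). Exact two-sided permutation tests on single members gave p = 0.2 for bli-2 and 0.5 to 0.9 for the others, and 3 libraries against 3 cannot go below 0.1.

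**Figure D4:**
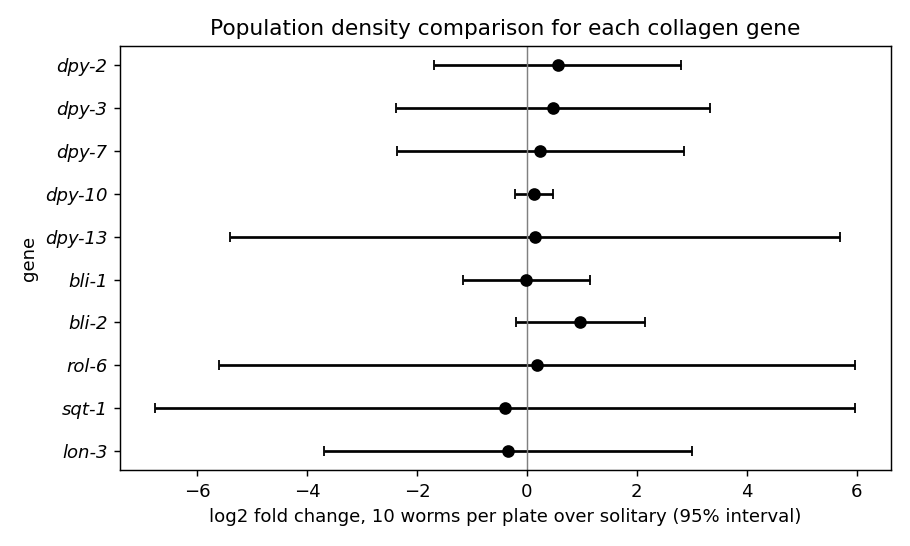
Log2 difference in level, 10 worms minus solitary, for each collagen gene, with 95% intervals from edgeR's quasi-likelihood fit over 3 libraries per condition. Every interval covers 0, from the narrowest for dpy-10 (-0.23 to 0.47) to the widest for sqt-1 (-6.76 to 5.98).

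Single libraries set the direction for most members. Without solitary replicate 3 the median log2 difference of the members was -0.20, and without solitary replicate 2 it was 1.16. The log2 difference of sqt-1 was 5.27 without solitary replicate 2 and -5.76 without 10-worm replicate 3, and that of rol-6 was 3.81 and -4.19. The highest-to-lowest ratio of the members, as a median on the log2 scale, went from 4.01 to 1.95 without solitary replicate 3.

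The related gene lists gave no call with edgeR either. Among all 18428 tested genes, 11.9% had an unadjusted p under 0.05 by edgeR, and 9321 were higher in the 10-worm population. Of the other body shape collagens 0 of 10 had an adjusted p under 0.05 (0 at an unadjusted p under 0.05), with 5 higher and 5 lower and a median log2 difference of -0.05. Of the collagen assembly genes 0 of 12 passed (0 unadjusted), with 6 higher and 6 lower. Of the molting genes 0 of 11 passed (1 unadjusted), with 10 higher and 1 lower and a median of 0.51, and 8 were lowest in solitary replicate 3. Of the epidermal transcription factors 0 of 9 passed (2 unadjusted), with 9 higher and a median of 0.12, and 5 were lowest in solitary replicate 3. Among adult collagens 0 of 3 passed (0 unadjusted), and col-19 had a log2 difference of -0.35. DESeq2 gave no adjusted p under 0.05 for these lists except for col-19 (adjusted p = 0.0227, with Benjamini-Hochberg adjustment). It did not give an adjusted p to every gene. The shape collagens had it for 3 of 10, the assembly genes for 10 of 12 and the molting genes for 8 of 11. The transcription factors had it for 6 of 9 and the adult collagens for 1 of 3.

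Genes reported to rise when furrow collagens are lost did not pass either (0 of 5, 1 at an unadjusted p under 0.05), with 3 higher and 2 lower. DESeq2 gave an adjusted p to 4 of them, none under 0.05, and gave none to cnc-2. The gene under the unadjusted threshold was cnc-2, lower in the 10-worm population by a log2 difference of -0.54, and gst-4 was also lower (-0.24). The most abundant per length, the antimicrobial peptide gene nlp-29, had 7.08, 8.04 and 12.2 CPM in solitary worms and 12.3, 9.75 and 14.9 CPM in the 10-worm population. The osmotic response gene gpdh-1, which makes glycerol, had 1.76, 1.22 and 7.25 CPM and then 6.87, 6.402 and 4.83 CPM. It was highest in solitary replicate 3, where dpy-2, dpy-3 and dpy-7 were lowest. In 10-worm replicates 1 and 2, where they were not low, gpdh-1 was nearly as high. A relation of gpdh-1 to the furrow collagens was not tested.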

How the data were processed

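Polyadenylated RNA of whole worms was made into libraries with the NEBNext Ultra II kit and sequenced in pairs. Tools were Trimmomatic (0.36) for trimming, STAR (2.5.2b) for alignment to WBcel235 and featureCounts of Subread (1.5.2), with versions from the submitters' processing notes, and the authors counted uniquely mapped reads within exons. The deposited values are raw read counts per gene, with 0 columns of other samples. A further deposited table holds counts divided by size factors (unit signal), made by the authors and used here only to read those factors. The annotation release and the strand setting of the counting are not given in the sources used here. Uniquely mapped reads leave out those shared by near-identical genes.

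Samples were grouped by their labels, with each column matched to its sample by name. The labels name the replicates as biological repeats, 3 per condition. Counts were tested with edgeR (4.0.16, limma 3.58.1, R 4.3.3) by a quasi-likelihood F test with TMM scaling and robust dispersion, over genes with at least 10 counts summed over 6 libraries, and p-values were adjusted by Benjamini-Hochberg over all tested genes. Calls followed the study's thresholds (adjusted p under 0.05 and an absolute log2 difference above 1). The tests were also run on simulated data with known answers. Level ratios between libraries used CPM with exact 95% intervals, and single levels used Wilson intervals. Both cover counting error only, since no molecular identifiers were used. The ratio intervals take no account of the highest and lowest library having been picked by level. Gene positions, exons and lengths came from the Ensembl annotation of WBcel235.

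The members and gene lists were chosen with earlier results of these data known. All members were named, as were the 3 most abundant and the near-absent genes of each list and the 10 genes closest in profile to the mean of the members. Genes outside that rule are said to be so. Alternatives were DESeq2 (1.42.0), other scalings and count filters, the replicate number as a block, removal of a length trend and leaving out libraries.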

Additional observations from a re-analysis of the deposited data

How the results depend on the processing

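No member had an adjusted p under 0.05 under any alternative (smallest 0.454 among the 126 of 135 values that had one), and the order of the members by level per length did not change when the longest transcript was used in place of all exons. The number of genes with an adjusted p under 0.05 (44), and of genes called with the fold threshold as well (2), depended on the processing: 421 genes had an adjusted p under 0.05 with DESeq2, 7 (1 called) with total counts, 745 (57 called) with no count minimum, 17 (1 called) with edgeR's filterByExpr, which kept 6 of the 10 members, and 0 (0 called) with the length trend removed. Leaving out each library gave 0 to 391 genes under 0.05 and 0 to 70 called, the highest of each without solitary replicate 3. The cause was not tested. Leaving out solitary replicate 2 and 10-worm replicate 3 together, which was chosen after seeing the data, gave 1 gene and 0 called, and log2 differences of -0.58 for dpy-13, 0.18 for bli-1, -0.57 for rol-6 and 0.74 for lon-3, with sqt-1 under the count minimum. With the replicate number as a block, 24 genes passed the adjusted p of 0.05 and 2 were called, and the log2 difference was -0.51 for dpy-13, -0.19 for rol-6 and 0.21 for lon-3. Deviations from the mean of the condition had r = 0.21, -0.30 and -0.30 between same-numbered replicates 1, 2 and 3. With 3 libraries per condition these deviations depend on each other, so r cannot show whether same-numbered replicates were handled together. The labels do not say. Across numbers, r was highest for solitary replicate 2 with 10-worm replicate 3 (0.44) and for solitary replicate 3 with 10-worm replicate 2 (0.32). With total counts the log2 difference of bli-1 was 0.0081. Leaving out each library in turn gave log2 differences of 0.04 to 1.08 for dpy-2, -0.10 to 1.23 for dpy-3, -0.30 to 1.05 for dpy-7, -0.022 to 0.32 for dpy-10, -3.53 to 3.10 for dpy-13, -0.49 to 0.44 for bli-1, 0.42 to 1.21 for bli-2, -4.19 to 3.81 for rol-6, -5.76 to 5.27 for sqt-1 and -1.28 to 1.67 for lon-3. The median difference of the members ranged from -0.20 to 1.16, their median highest-to-lowest log2 ratio from 1.95 to 4.01 and their median pairwise r from 0.12 to 0.49. Depth limits bli-1, bli-2 and the low libraries of rol-6 and sqt-1, where a level rests on 1 to 21 reads.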
